A study of Mus musculus with 4 samples.

Results

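Retinoid handling in hepatocytes was followed through 9 genes that carry out its successive steps, from the carrier of retinol to the receptor that retinoic acid binds. The genes are Rbp4, Lrat, Adh1, Rdh16, Dhrs3, Aldh1a1, Aldh1a7, Cyp26a1 and Rarb, and they are 9 of the 27248 genes named on the array. They were chosen by their known roles, with earlier results of these data already known. Every probe that the array design assigns to one of these names was read. The 9 genes have 15 probes, of which 13 were well above background on at least 1 array and 7 on all 4. Each gene had at least 1 probe well above background on at least 1 array, and 6 of the 9 had one on all 4.

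RNA of primary hepatocytes from C57BL/6 mice was hybridized to 1 array for each of 4 groups, with control and Drp1LiKO cells each left untreated or given palmitate, a saturated fatty acid, at 200 μM. Drp1LiKO mice are Alb-Cre Tg/+ Drp1 flox/flox, so Dnm1l, which encodes the mitochondrial fission protein Drp1, is deleted where the albumin promoter drives Cre and non-hepatocyte cells keep it. The controls are floxed littermates without the deletion by the methods, whereas their source labels read wild-type. All animals were male, their age for these cultures is not given in the sources used here, and all cells were plated in medium with fetal bovine serum and harvested 24 h after seeding. The duration of the palmitate exposure for these arrays is not given either. With 1 array in each group there is no spread between cultures or animals, so differences are described without a test, and a difference of at least 2-fold (1 log2 unit) on a probe well above background on at least 1 of the compared arrays is counted as past 2-fold. Both untreated arrays lie on 1 slide and both palmitate arrays on another, so palmitate and slide cannot be told apart, whereas the genotypes are compared within a slide.

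Levels are given as log2 intensity minus the 75th percentile of the same array, so that 0 is the 75th percentile. The scanner software attached an error of 0.14 log2 units to a bright spot, which gives 0.20 log2 units for a difference between 2 arrays and covers spot measurement only. A probe of Dnm1l stood at 2.42 and 2.43 on the control arrays without and with palmitate and at 1.07 and 1.01 on the Drp1LiKO arrays. A second, dim Dnm1l probe was well above background on 2 arrays, with genotype differences of -0.35 log2 units untreated and 0.22 with palmitate. The sources used here do not place either probe relative to the deleted exons. Over all genes tested, 8.56% were at least 2-fold higher and 5.68% at least 2-fold lower in untreated Drp1LiKO than in untreated control cells. Higher genes made up 60.1% of those past 2-fold, and 48.8% when the arrays were scaled to their medians instead, which shifted the median difference of all genes by -0.18 log2 units.

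Retinol leaves the liver bound to retinol-binding protein, or is stored as retinyl ester, chiefly in hepatic stellate cells. Inside cells, alcohol and short-chain dehydrogenases oxidize retinol to retinal in a reversible step, and retinal dehydrogenases then oxidize retinal irreversibly to retinoic acid. Retinoic acid binds RAR receptors paired with RXR receptors on DNA, and Cyp26 enzymes hydroxylate and clear it. Cyp26a1, Rarb and Dhrs3 are textbook targets of retinoic acid itself.

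The genes of retinoic acid clearance and response were higher in Drp1LiKO cells on both slides. Cyp26a1 was 6.99-fold higher in untreated Drp1LiKO than in control cells, and at least 28.3-fold higher with palmitate. Rarb was 1.76-fold higher untreated and 4.18-fold higher with palmitate, and Dhrs3 was 1.82-fold and 2.81-fold higher. On the oxidation steps, Adh1 was 2.24-fold and 2.26-fold higher in Drp1LiKO cells, whereas Aldh1a1 was 2.33-fold and 2.68-fold lower. The carrier gene Rbp4 and Aldh1a7, a close relative of Aldh1a1 known more for other aldehydes, differed by at most 1.28-fold in both genotype comparisons.

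The upstream sequences of Cyp26a1 and Rarb are shown because these members had the largest genotype differences with palmitate and because both windows hold the spacing of half-sites that RAR and RXR receptors are known to bind. All 9 members matched a RefSeq promoter window, 13 windows in all, each running from 250 bases before to 50 bases after a start site of GRCm38.p6. A direct repeat of half-sites 5 bases apart, DR5, was searched on both strands as the letters GNTCANNNNNNGNTCA, in which N is any base. It was found in 283 of 32851 promoter windows (0.861%) and in 267 of 27025 genes (0.988%). Among the 9 members it was found in Cyp26a1 and Rarb only. In Rarb it covers bases -52 to -37 from the start on the gene's strand, and in Cyp26a1 it covers bases -32 to -17 on the opposite strand. The 150 bases before each start site follow, with the repeat, including the first base of its first half-site, in capitals, for Rarb at chr14:16575477-16575626 (minus strand) and for Cyp26a1 at chr19:37697658-37697807 (plus strand).
Rarb: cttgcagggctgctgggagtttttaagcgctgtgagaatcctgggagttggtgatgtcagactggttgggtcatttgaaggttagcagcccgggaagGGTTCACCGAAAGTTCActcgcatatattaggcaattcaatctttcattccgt
Cyp26a1: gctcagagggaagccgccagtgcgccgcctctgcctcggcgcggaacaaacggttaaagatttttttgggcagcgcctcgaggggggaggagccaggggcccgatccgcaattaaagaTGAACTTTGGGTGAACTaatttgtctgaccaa
Repeats with half-sites 2 bases apart (DR2, GNTCANNNGNTCA, 1.27% of genes) or 1 base apart (DR1, GNTCANNGNTCA, 1.44% of genes) were found in no member window. Among the 52 other retinoid genes, 38 had a promoter window, and the one match there was a DR1 in Bco1, which encodes a carotene-cleaving enzyme. A match of letters is a description and not evidence of binding. Of all genes with a DR5 that could be compared, 10 of 86 were at least 2-fold higher and 2 were at least 2-fold lower in untreated Drp1LiKO cells, beside 7.71% higher and 5.18% lower among all genes with a promoter window. With palmitate, 7 of 86 were higher and 3 were lower, beside 719 and 442 of 11064 among all genes with a promoter window. Cyp26a1 and Rarb are themselves among the genes with a DR5. Cyp26a1 is counted as higher in both comparisons and Rarb with palmitate, so these counts are not independent of the members shown.

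**Figure D1:**
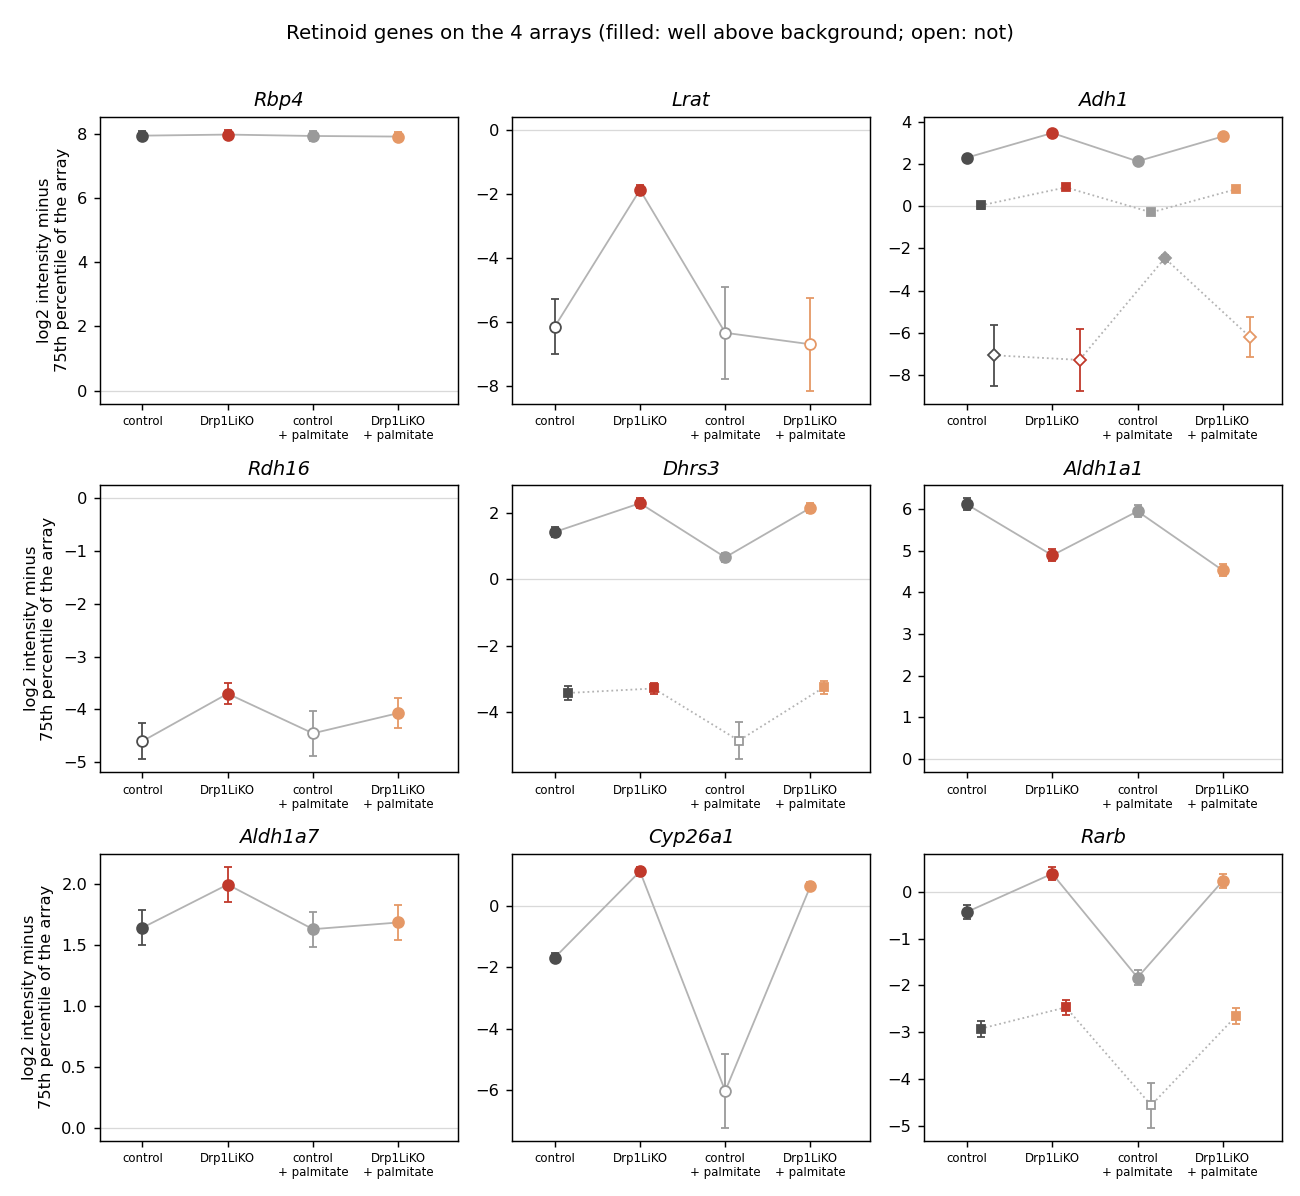
Normalized level of each of the 9 retinoid genes on the 4 arrays (vertical axis, log2 intensity minus the 75th percentile of the array). Circles are the probe that stands for the gene, squares and diamonds its further probes, bars the scanner software's error of the single spot, and open symbols values not well above background. Cyp26a1, Rarb and Dhrs3 are lowest on the control palmitate array, and Aldh1a1 is lower on both Drp1LiKO arrays.

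Among the carriers, Rbp4 encodes the protein that takes retinol from the liver into the blood. Its probe (chr19:38191129-38191188, mm9, as are all probe positions here) read 7.94 in control, 7.97 in Drp1LiKO, 7.93 in control with palmitate and 7.91 in Drp1LiKO with palmitate cells. These 4 levels lie within the scanner error of each other, and no genotype or palmitate difference exceeded 0.06 log2 units in size. Albumin, a hepatocyte product read as a marker, was 0.20 log2 units higher in untreated Drp1LiKO and 0.28 higher with palmitate.

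Lrat encodes lecithin retinol acyltransferase, which makes retinyl esters and is known from stellate cells. Its probe (chr3:82696805-82696864) read -1.87 in untreated Drp1LiKO cells and was not well above background on the other arrays, where the signal lay between -6.70 and -6.15. Against the lowest level called well above background, Lrat was at least 7.26-fold higher in untreated Drp1LiKO than in untreated control cells, and at least 6.25-fold higher than in Drp1LiKO cells with palmitate. The spot was uneven on that array. The SD of its pixels was 0.516 of their mean, whereas it was 0.178 to 0.209 on the other arrays, and 0.421% of the 10682 spots of like signal on the same array were more uneven. After normexp background correction, the untreated difference was 1.46 log2 units. Lrat thus rests on a single uneven spot, and counts of members are therefore also given without it.

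Of 18 stellate markers, 14 were measured. With dim signals taken as measured, 9 of 14 tested untreated were at least 2-fold higher in Drp1LiKO cells, beside 8.56% of all genes. With palmitate 8 of 13 were, beside 7.24%, and 0 were at least 2-fold lower in either comparison. The others were within 2-fold, among them Lhx2 at -0.26 and 0.07 log2 units. On the single arrays, the number well above background was 10 in control, 14 in Drp1LiKO, 7 in control with palmitate and 13 in Drp1LiKO with palmitate cells. Their summed intensity relative to the 75th percentile was 60.6, 77.5, 61.3 and 75.1 in the same order, and most of it came from Acta2 and Ecm1, which differed by at most 0.22 log2 units. Dcn, which encodes decorin, was 4.19 and 4.04 log2 units higher in Drp1LiKO cells without and with palmitate, and Col1a2 was 3.02 and 2.44 higher. Des, Gfap, Ngfr and Hand2 stayed at background on all 4 arrays. The median genotype difference of the measured stellate markers was 1.78 log2 units untreated and 1.47 with palmitate. That of macrophage markers was 2.41 and 1.87, and of endothelial markers 2.02 and 1.21. Hepatocyte markers had medians of 0.22 and 0.22, and cholangiocyte markers of 0.04 and -0.40. Dim signals entered these medians as measured. Like Pdgfrb, Col3a1, Lum and Colec11, the markers Clec4f, Vsig4, Lyve1 and Gpr182 were tested only through the Drp1LiKO arrays. All 12 hepatocyte markers were well above background on all 4 arrays, so the filter does not act alike on the cell types. In such bulk cultures, more cells of a type and more RNA in each cell cannot be told apart, and the part of these cells in the retinoid differences was not tested.

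Adh1 encodes an alcohol dehydrogenase abundant in hepatocytes that oxidizes retinol as well as ethanol. Its brightest probe (chr3:137952821-137952880) read 2.29 in control, 3.46 in Drp1LiKO, 2.12 in control with palmitate and 3.30 in Drp1LiKO with palmitate cells. Both Drp1LiKO levels lay above both control levels, by 1.16 log2 units untreated and 1.18 with palmitate, while palmitate differences were -0.17 and -0.16. When the arrays were scaled to their medians, the untreated difference was 0.98 and no longer past 2-fold. A second probe of the same transcript, which spans chr3:137943475-137945457, showed the same order, with Drp1LiKO cells 1.81-fold and 2.14-fold higher. Another probe under this name (chr3:137945024-137945083) runs on the opposite strand and comes from a cDNA clone. It exceeded background in control with palmitate cells alone, at -2.46, where 2 of its 24 neighboring spots were also lit on that array alone against a mean of 0.143 over the array. It reads RNA of the other strand, and averaging it in turned the Adh1 difference with palmitate to -0.49 log2 units. The spots of the brightest probe were uneven on the Drp1LiKO arrays, where 1.098% of spots of like signal were more uneven untreated and 0.533% with palmitate. The pixel SD was 0.221 and 0.230 of the mean there and 0.183 and 0.204 on the control arrays. Genes with the profile nearest to that of Adh1, of 13697 genes well above background on all 4 arrays, were Adam19 at a distance of 0.03 and Pfkp at 0.05 log2 units over the 4 arrays.

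Rdh16, a microsomal retinol dehydrogenase gene, was near the detection limit. Its probe (chr10:127252579-127252638) read -3.70 in Drp1LiKO and -4.07 in Drp1LiKO with palmitate cells, and both control arrays left it at background, with signals of -4.61 and -4.46. The difference amounted to 1.87-fold without palmitate by the measured dim signal and at least 1.07-fold with palmitate, so neither reached 2-fold. After normexp background correction, the differences were 0.15 log2 units untreated and 0.02 with palmitate.

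Dhrs3 encodes the retinal reductase that turns retinal back into retinol and so limits the supply of retinoic acid. Its probe (chr4:144517485-144517544) read 1.43 in control, 2.29 in Drp1LiKO, 0.66 in control with palmitate and 2.15 in Drp1LiKO with palmitate cells. The control palmitate array was the lowest, the Drp1LiKO levels stayed within 0.14 log2 units of each other, and the genotype difference was 0.87 untreated and 1.49 with palmitate. A dimmer probe (chr4:144483279-144483338) read -3.42, -3.29 and -3.25 in control, Drp1LiKO and Drp1LiKO with palmitate cells and was not well above background in control with palmitate cells. On that probe the untreated genotype difference was 0.13, within the scanner error of 0.27, and with palmitate Dhrs3 was at least 1.89-fold higher in Drp1LiKO cells.

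The irreversible oxidation of retinal was represented by a pair of neighboring, closely related genes. Aldh1a1 encodes retinal dehydrogenase of the liver, and its probe (chr19:20717764-20717823) read 6.11 in control, 4.89 in Drp1LiKO, 5.95 in control with palmitate and 4.53 in Drp1LiKO with palmitate cells. Both Drp1LiKO levels lay below both control levels, by 1.22 log2 units untreated and by 1.42 with palmitate. Aldh1a1 was the one member below control in both genotype comparisons by more than 2-fold. Aldh1a7, a rodent gene whose product is known for other aldehydes more than for retinal, has a probe on the other strand of the same chromosome (chr19:20767553-20767612). It read 1.64 in control, 1.99 in Drp1LiKO, 1.63 in control with palmitate and 1.68 in Drp1LiKO with palmitate cells, with genotype differences of 0.35 and 0.05. On the untreated control and the Drp1LiKO palmitate arrays, the scanner software marked the local background of this spot as an outlier. The spot itself was not marked, and its values were kept. The longest run of letters that both 60-base probes share is 8 bases. Genes with profiles nearest to Aldh1a1 were Plcb1, at a distance of 0.12, and Rras2, at 0.13.

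The sequences before the start sites of these paralogs are shown because they are nearly alike while the genotype differences of the genes are not. Over the 120 bases before the start, taking the second of 2 windows listed for Aldh1a1, 105 positions were identical (87.5%) with no gap. Capitals mark the longest identical stretch, 65 bases that begin at base -94 in both. Aldh1a1 lies at chr19:20601848-20601967 (plus strand) and Aldh1a7 at chr19:20727557-20727676 (minus strand), GRCm38.p6.
Aldh1a1: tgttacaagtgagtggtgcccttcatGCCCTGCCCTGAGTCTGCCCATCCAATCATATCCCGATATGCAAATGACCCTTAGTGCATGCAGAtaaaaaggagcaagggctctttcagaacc
Aldh1a7: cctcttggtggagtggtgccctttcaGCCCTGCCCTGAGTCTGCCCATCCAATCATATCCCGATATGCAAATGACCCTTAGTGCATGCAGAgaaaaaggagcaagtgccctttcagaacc

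Cyp26a1 encodes the main retinoic acid hydroxylase of the liver and has 1 probe on the array (chr19:37775566-37775625, plus strand), whose 60 bases are shown because the largest genotype difference with palmitate rests on them.
Cyp26a1 probe: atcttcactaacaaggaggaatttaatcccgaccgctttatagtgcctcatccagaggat
The probe read -1.68 in control, 1.13 in Drp1LiKO and 0.65 in Drp1LiKO with palmitate cells. In control cells with palmitate it was not well above background, with a signal of -6.02. Both Drp1LiKO levels lay above both control levels. The untreated genotype difference was 2.81 log2 units, and 1.80% of genes tested were higher by more. With palmitate, Cyp26a1 was at least 28.3-fold higher in Drp1LiKO cells. Control cells with palmitate were at least 5.62-fold lower than untreated control cells, whereas the Drp1LiKO arrays differed by -0.47 log2 units. After normexp background correction, which compresses dim values, the differences were 3.43 between genotypes with palmitate and -1.50 between control arrays, still past 2-fold but smaller than the bounds. Of the 24 spots around the Cyp26a1 spot, 3 were lit in the untreated control hybridization alone, where the mean over that array was 0.309 per spot. The part of these neighbors in the result was not tested. The 2 nearest profiles among genes well above background on all 4 arrays were Tmem179 at 3.09 log2 units and Ifi27l2a at 3.19. These distances rest on the dim value of Cyp26a1, a level that the candidates could not have, and are no measure of how many genes resemble it.

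Rarb encodes retinoic acid receptor beta. Its brightest probe (chr14:17263511-17263570) read -0.43 in control, 0.39 in Drp1LiKO, -1.83 in control with palmitate and 0.23 in Drp1LiKO with palmitate cells. Both Drp1LiKO levels were above both control levels, and the control palmitate array was again the lowest. The genotype difference was 0.82 log2 units untreated and 2.06 with palmitate, and the palmitate difference was -1.40 in control and -0.15 in Drp1LiKO cells. A second probe in the same region (chr14:17263889-17263947) read -2.93, -2.47 and -2.65 in control, Drp1LiKO and Drp1LiKO with palmitate cells and was not well above background in control with palmitate cells. There the difference with palmitate was at least 2.87-fold, and untreated control cells were at least 2.37-fold above control cells with palmitate. The other two Rarb probes, one for a further transcript variant and one from a cDNA clone, gave no signal above background on the 4 arrays. The gene with the profile nearest to Rarb, of the 13697, was Dhrs3 at a distance of 0.52, followed by Cxcl14 at 0.54. This neighbor was looked up after the values were seen, since the rule for such neighbors covered members past 2-fold in both genotype comparisons.

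**Figure D2:**
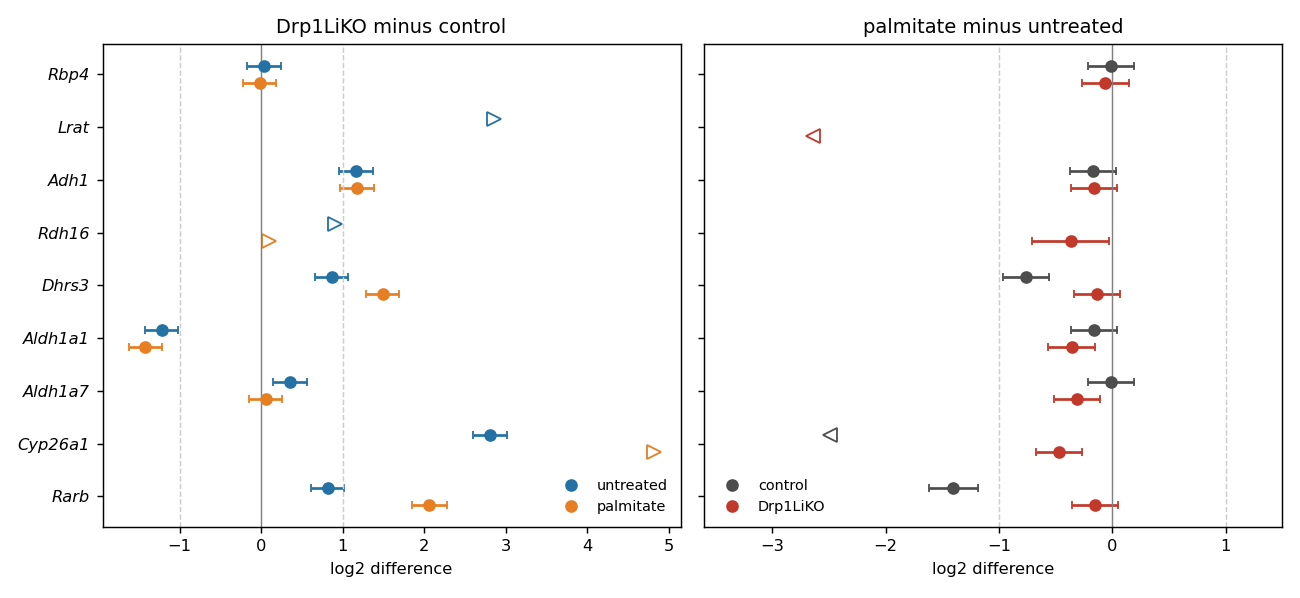
Differences of the 9 genes between genotypes (left, Drp1LiKO minus control) and between palmitate and untreated cells (right), in log2 units. Filled circles have both arrays well above background and bars give the combined scanner error, open triangles are bounds where 1 array was not well above background, and dashed lines mark 2-fold. Cyp26a1, Rarb and Dhrs3 lie further right with palmitate than without it, and no plotted member lies above 0 on the right beyond its error.

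Counts over the 9 genes are given beside those over the array. Without palmitate, 3 of 9 members were at least 2-fold higher in Drp1LiKO cells (Lrat, Adh1 and Cyp26a1), where 8.56% of all genes were, and 1 was at least 2-fold lower (Aldh1a1), where 5.68% were. Without Lrat, 2 of 8 were higher and 1 was lower. The median difference of the members was 0.87 log2 units, beside -0.02 for all genes. With palmitate, 4 of 8 members tested were at least 2-fold higher (Adh1, Dhrs3, Cyp26a1 and Rarb), where 7.24% of all genes were, and Aldh1a1 was at least 2-fold lower, where 4.34% were. The median was 0.78, beside -0.02.

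Palmitate differences of the members that could be compared lay at or below 0. In control cells, 0 of 7 members were at least 2-fold higher, where 2.43% of all genes were, and 2 were at least 2-fold lower (Cyp26a1 and Rarb), where 2.64% were. The median difference was -0.17 log2 units, beside a median of all genes close to 0, and 0 of 7 members lay above 0. In Drp1LiKO cells, 0 of 9 members were at least 2-fold higher, where 3.38% of all genes were, and 1 was at least 2-fold lower, where 2.77% were. That member was Lrat, and none was past 2-fold without it. Slide and palmitate cannot be told apart in these comparisons.

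The genotype differences with and without palmitate were then set against each other gene by gene. The response to palmitate differed between genotypes by at least 2-fold in 3 of 9 members (Cyp26a1, Rarb and Lrat), where 9.83% of all genes did. Without Lrat it was 2 of 8. The response was at least 2.02 log2 units more positive in Drp1LiKO cells for Cyp26a1 (1.03 after normexp background correction), 1.25 for Rarb (0.89 after normexp background correction) and 0.62 for Dhrs3, and it was 0.01 for Adh1, -0.05 for Rbp4, -0.20 for Aldh1a1 and -0.30 for Aldh1a7. Among 13697 genes read above background in all 4 groups, the median size of this gap was 0.13 log2 units and the 90th percentile 0.47. A larger positive gap than that of Rarb was found in 72 of these genes (0.526%), and than that of Dhrs3 in 358 (2.61%). Whether these gaps exceed the spread between cultures is not known from 1 array in each group.

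**Figure D3:**
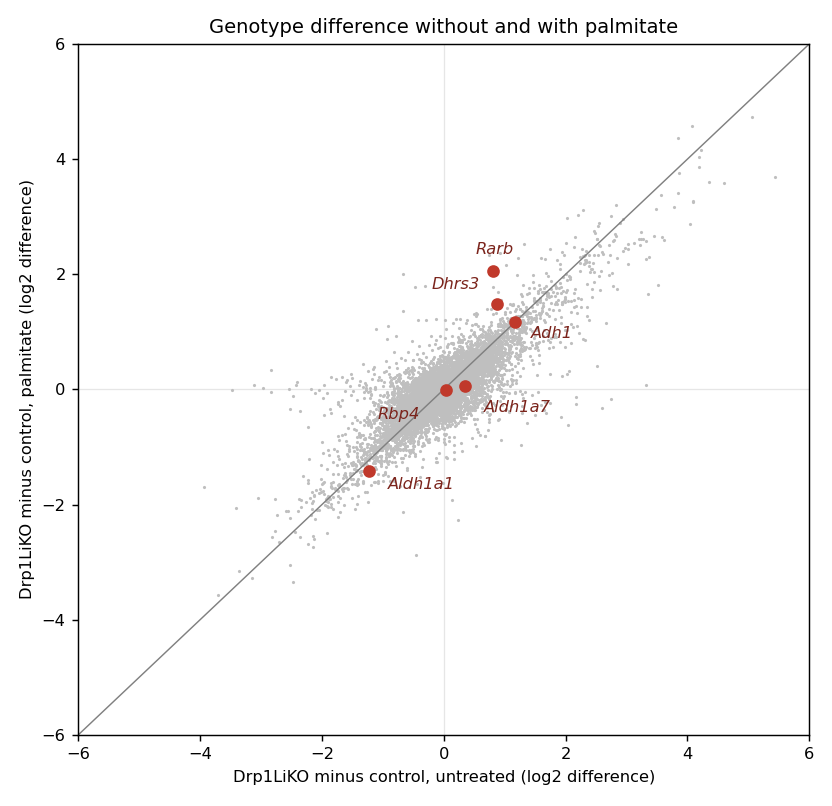
Genotype difference of each gene without palmitate (horizontal) and with palmitate (vertical), both Drp1LiKO minus control in log2 units, for 13697 genes well above background on all 4 arrays (grey) and the 6 members among them (red). The line marks equal differences. Rarb and Dhrs3 lie above the line, Adh1 lies on it and Aldh1a1 lies below 0 on both axes.

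A further 52 genes of retinoid transport, storage, oxidation, clearance and response were read by role. Untreated, 5 of 42 tested were at least 2-fold higher in Drp1LiKO cells, beside 8.56% of all genes. At least 2-fold lower were 2, beside 5.68%, and the median was 0.05 log2 units. With palmitate, 3 of 37 were at least 2-fold higher, beside 7.24%, and 0 were lower, beside 4.34%, with a median of 0.19. Palmitate differences in control cells were at least 2-fold higher in 1 of 39 genes tested, beside 2.43%, and lower in 3, beside 2.64%. In Drp1LiKO cells they were higher in 1 of 41, beside 3.38%, and lower in 3, beside 2.77%. The genotype shares lie near those of all genes. Among them, the gene of the second retinoic acid hydroxylase stood out.

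Cyp26b1 encodes a retinoic acid hydroxylase known mainly outside hepatocytes. It read -3.41 in control, -0.07 in Drp1LiKO and -0.21 in Drp1LiKO with palmitate cells and was not well above background in control with palmitate cells. The order of the 4 arrays was that of Cyp26a1, with a genotype difference of 3.34 log2 units untreated and of at least 15.6-fold with palmitate. It was the one clearance gene of the list that could be read, since Cyp26c1 and Cyp2c39 gave no signal above background. The part of the stellate markers past 2-fold in the Cyp26b1 difference was not tested.

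Among the receptors, Rarg was 0.81 log2 units higher in Drp1LiKO cells without palmitate and 0.93 with it, Rara differed by 0.04 and 0.28, and Rxra by 0.17 and 0.25. Of the 5 receptor genes, 3 lay above 0 untreated, where the lowest was at -0.64, and 5 with palmitate. None of the 5 was past 2-fold in either genotype comparison. Nrip1, a corepressor gene that retinoic acid is known to induce, differed by 0.62 and 1.05. Tgm2, a transglutaminase gene also known as a retinoic acid target, differed by 0.46 and 0.33.

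Of the carriers, Ttr, which encodes transthyretin, the blood partner of retinol-binding protein, was 0.50 log2 units higher in both genotype comparisons. Stra6, a retinol uptake receptor gene, differed by -0.02 and 0.67. Of the genes of esterification, hydrolysis and carotene cleavage, 4 of 7 tested lay above 0 untreated and 2 of 5 with palmitate. Their medians were 0.62 and -0.14 log2 units. Those past 2-fold were all higher. Ces1d, a carboxylesterase gene, was 1.25 and 1.40 log2 units higher in Drp1LiKO cells. Pnpla3 and Lipe, both lipase genes, exceeded background in untreated Drp1LiKO cells alone, as Lrat did, and their untreated differences were at least 3.34-fold and at least 1.65-fold. Spots lit on 1 array only were most frequent on that array, with a mean of 0.613 among 24 neighbors, beside 0.143 to 0.309 on the others.

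Among the other dehydrogenases, none was at least 2-fold higher in Drp1LiKO cells. Rdh7 differed by 0.50 and 0.99 log2 units, Rdh9 by 0.50 and 0.53, and Rdh10, a retinol dehydrogenase of development, by -0.72 and -0.17. Dhrs4 read 3.11, 0.76, 3.06 and 2.68 in control, Drp1LiKO, control with palmitate and Drp1LiKO with palmitate cells, so the untreated difference of -2.35 came from a low value on the untreated Drp1LiKO array. Of the retinal oxidation genes, Aldh1a2 exceeded background in untreated control cells alone, at -1.66, and was there at least 9.71-fold higher than in untreated Drp1LiKO cells. Aox3, an aldehyde oxidase gene, exceeded background in untreated Drp1LiKO cells alone, at least 2.19-fold above control.

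**Figure D4:**
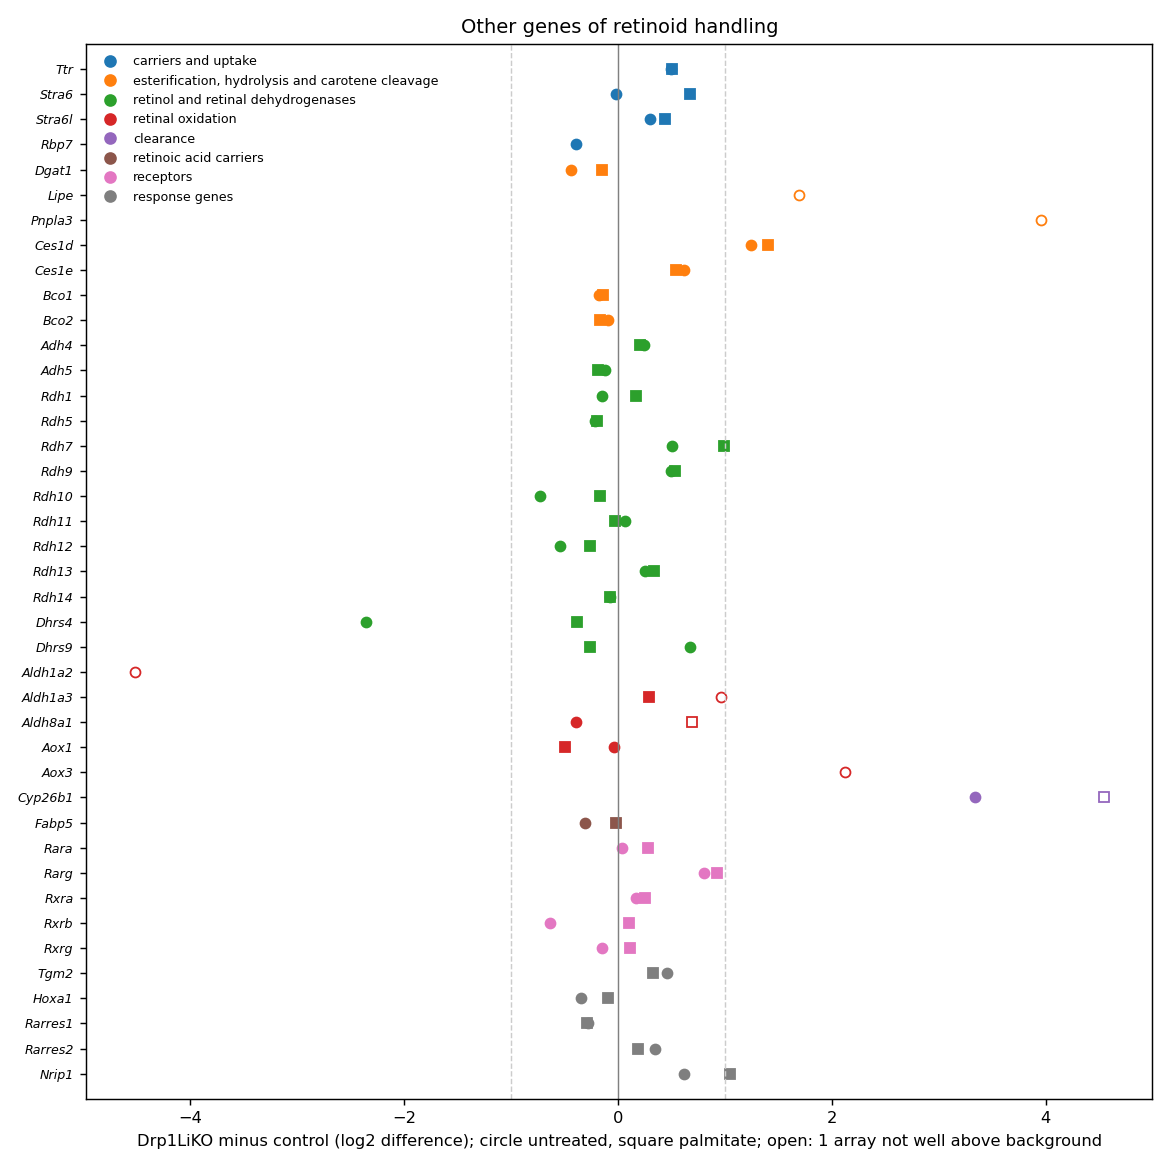
Genotype difference (Drp1LiKO minus control, log2 units) of other retinoid genes with a probe well above background, colored by role, with circles for untreated and squares for palmitate arrays. Open symbols mark a difference as measured with 1 of the compared arrays not well above background, and dashed lines mark 2-fold. Cyp26b1 is the one gene beyond 3 log2 units in both comparisons.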

How the data were processed

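Gene expression was measured on 1-color Agilent arrays (Cy3) of 62976 spots, 1 array for each of 4 groups taken from the sample labels. The authors deposited scanner tables of intensity values, written by Feature Extraction 10.7.1.1 per the file headers (the submitters' processing notes name Agilent Feature Extraction 9.5.1.1), with background subtracted and spatial trends removed, and not scaled to each other. They also deposited a table of intensity values whose columns hold equal sorted values, as quantile normalization gives, and it served as an alternative. The untreated control array's label says that its raw data belong also to a sample of another series.

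From the deposited intensity, log2 values were computed relative to the array's own 75th percentile (intensity 485, 542, 424 and 468 for control, Drp1LiKO, control with palmitate and Drp1LiKO with palmitate). Control spots and 47 to 71 spots per array with outlier flags on the spot itself were left out. Flags on the local background alone were ignored. No spot was saturated, and 47.0% to 53.1% of spots were well above background by the scanner's flag. A gene was represented by its probe of highest mean level among those above background anywhere. A bound compares the bright level with the dim signal or, where larger, the lowest level called well above background on the dim array. An additive model over the 4 arrays leaves 1 residual degree of freedom and was not used. Nearest profiles are by Euclidean distance after centering over the 4 arrays.

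The members and gene lists were chosen with earlier results of these data known. Named genes were the members, list genes past 2-fold in a genotype comparison with up to 3 examples a role, cell type markers, and the 2 nearest profiles of members past 2-fold in both genotype comparisons. The values of 1 list gene are not reported here. Promoter windows came from RefSeq (GRCm38.p6), and probe positions from the array design (mm9). Alternatives were normexp background correction (limma 3.58.1 in R 4.3.3, offset 50), quantile and median scaling, the authors' value table, other filters, a floor, the mean of all probes, outlier spots kept and a 1.5-fold threshold. Other steps used Python 3.11.15, pandas 2.3.3 and numpy 2.4.6, and the fold counting was tested on simulated data.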

Additional observations from a re-analysis of the deposited data

How the results depend on the processing

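With 1 array in each group no value has a spread between cultures, and dim spots have only bounds. Of 144 values of members past 2-fold under other settings, 140 kept their direction and stayed past it, 3 fell short of it and 1 reversed. Part of this was fixed in advance. The 1.5-fold threshold cannot fail a value past 2-fold. Leaving out the filter, keeping outlier spots and requiring all compared arrays above background left each member value that could be compared as it was. The floor and the mean of all probes changed only members with a dim array or further probes. The reversal was Adh1 with palmitate, -0.49 log2 units as the mean of all probes, where the probe of the opposite strand enters. Untreated it was 0.60 there, and 0.98 under median scaling. Under normexp the Rarb response difference was 0.89. No paired analysis was possible because, with 1 array in each group, no replicate numbers pair samples, and no replicate could be left out. A fit with slide as a block could be made, leaves 1 residual degree of freedom and was not run.

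Counts of members past 2-fold moved as follows. With all compared arrays well above background, 1 was past 2-fold for palmitate in control cells, 0 for palmitate in Drp1LiKO cells and 1 for the response difference. As the mean of all probes, these were 4 for palmitate in control cells and 5 for the response difference. At 1.5-fold, 7 were past the threshold for genotype untreated. With Lrat left out, chosen after seeing the data, 0 were past it for palmitate in Drp1LiKO cells. Of the other retinoid genes, normexp left 1 for palmitate in control cells, 2 for palmitate in Drp1LiKO cells and 3 for the response difference. With all compared arrays well above background, 3 remained for genotype untreated, 0 for palmitate in control cells, 2 for palmitate in Drp1LiKO cells and 1 for the response difference. The floor left 1 for palmitate in control cells. At 1.5-fold, 14 were past the threshold for genotype untreated, 8 for genotype with palmitate, 9 for palmitate in Drp1LiKO cells and 11 for the response difference. Over all genes, 2273, 1775, 772, 977 and 1621 were past 2-fold for genotype untreated, genotype with palmitate, palmitate in control cells, palmitate in Drp1LiKO cells and the response difference. In the same order these were 907, 608, 226, 308 and 400 after normexp, 1188, 828, 136, 301 and 234 with all compared arrays above background, 3471, 2968, 1978, 2380 and 3355 without a filter, and 4208, 3259, 1420, 1998 and 2742 at 1.5-fold. The floor left 473, 638 and 973 for the last 3. Leaving out the filter shifted the median of all genes by -0.19 for genotype untreated.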
